A study of Mus musculus with 21 samples.

Results

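The 77 genes described here encode subunits of the 5 protein complexes of oxidative phosphorylation, among the 11628 genes measured in sorted mouse blood progenitors. They were chosen by symbol alone. Complex I held 36 genes with symbols beginning Ndufa, Ndufb, Ndufc, Ndufs or Ndufv, complex II the 4 genes Sdha to Sdhd, complex III 8 Uqcr genes, complex IV 12 genes from Cox4 to Cox8, and complex V, the ATP synthase, 17 Atp5 genes. In complex I the rule asks for a digit right after those letters, so Ndufab1 was not matched. Assembly factors named Ndufaf and the plasmacytoid dendritic cell marker Cox6a2 were left out. The rule follows symbols, so a few members are not core subunits of the complex they were counted in. Ndufa4, once placed in complex I, is now known as a complex IV subunit. Atp5s, listed by RefSeq as Dmac2l, is known as a coupling factor of the ATP synthase, and Atp5sl, listed by RefSeq as Dmac2, is known for complex I assembly. The table held 0 of the subunits encoded by mitochondrial DNA, so the text concerns nuclear genes.

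The libraries came from bone marrow of mice homozygous for a mutation of Etv6, a repressor of the ETS family of transcription factors, and of wild-type mice. The mutant groups (HOMO, genotype ETV6 mt/mt, with the change that the series writes as h.P214L) had 4 libraries in each of 3 sorted populations, and the wild-type groups (WT) had 3. The allele is described as a germline mutation, so every cell of the animal carries it. HSC, the haematopoietic stem cells, lacked lineage markers, FLK2 and CD38 by the labelled gate and carried cKit, Sca1 and CD150. MPP4, multipotent progenitors with a lymphoid bias, had the same cKit and Sca1 gate but carried FLK2. CLP, the common progenitors of lymphocytes, lacked lineage markers too, carried IL7 (as the labels write it) and Flk2, and were low for cKit and for Sca1. All mice were 10 or 12 weeks old, and each group held both sexes. The design gives 4 mutant and 3 wild-type mice, without stating that a replicate number marks a mouse. Values are RPKM, reads of a gene scaled to its length and to the size of the library, given as mean ± SD with n = 4 for mutant and n = 3 for wild-type groups. Changes are differences of log2(RPKM + 1), with p-values from limma adjusted by Benjamini-Hochberg over 11496 genes, and a gene was called where the adjusted p was under 0.05.

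The respiratory chain passes electrons from NADH, through complex I, and from succinate, through complex II, to ubiquinone, then through complex III and cytochrome c to complex IV, where oxygen is reduced. Complexes I, III and IV pump protons across the inner mitochondrial membrane, and complex V lets them return and makes ATP. Stem cells of the adult marrow have been described as relying on glycolysis more than their progeny do, which is why the steps from HSC to MPP4 and CLP were compared.

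Depth is unknown, since the table gives no counts. RPKM summed to 337818 to 376135 per library, libraries of a group correlated at 0.968 to 0.990 over genes, and the 77 members took 2.75% to 3.36% of the sum. In both genotypes, all 10 stem cell markers were lower in MPP4 than in HSC, all 6 MPP4 markers were higher in MPP4 than in HSC, and all 7 measured CLP markers were higher in CLP than in MPP4. The 6 MPP4 markers were not particular to MPP4. Their mean sum was 2776 RPKM in CLP_WT against 1780 in MPP4_WT, and 2789 in CLP_HOMO against 1279 in MPP4_HOMO. In CLP against MPP4, 2 of them were called higher in wild-type mice and 5 in mutants, with 4.77% and 7.86% of all genes. Neutrophil and erythroid marker transcripts varied between libraries, and 0 of the 9 measured genes of either list were called between genotypes. The neutrophil markers summed to 93.9 to 245 RPKM in HSC_HOMO against 164 to 1451 in HSC_WT, to 749 to 2338 in MPP4_HOMO against 575 to 1110 in MPP4_WT, and to 239 to 2118 in CLP_HOMO against 310.0 to 578 in CLP_WT. The 9 measured erythroid markers summed to 178 to 3726 RPKM in HSC_HOMO against 239 to 5266 in HSC_WT, to 2294 to 5537 in MPP4_HOMO against 346 to 3252 in MPP4_WT, and to 57.4 to 6009 in CLP_HOMO against 1125 to 1870.5 in CLP_WT. The 5 measured megakaryocyte markers varied within MPP4 too, at 13.2 to 200.4 RPKM in MPP4_HOMO against 9.49 to 171 in MPP4_WT. They summed to 144 to 168 RPKM in HSC_HOMO against 181 to 268 in HSC_WT. In CLP_HOMO they summed to 4.05 to 12.7 RPKM against 6.35 to 8.11 in CLP_WT. Of these 5 genes, 0 were called between genotypes. In MPP4 against HSC, 4 of the 9 neutrophil markers were called higher in mutants and 2 in wild-type mice. Of all genes, 16.0% and 16.1% were called higher in these comparisons. For the difference of mutant effects between MPP4 and HSC, 0 of the 9 were called. The part of the neutrophil, erythroid and megakaryocyte transcripts in the results below was not tested.

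Of the 77 members, 4 had group means that differed by more than 1.5 times, and the stretches upstream of their starts are shown for that reason. The promoter table of RefSeq (GRCm38.p6, the assembly also called mm10) matched 66 of the 77 members and gives 250 bases before and 50 after each start. Bases that lie in a GENCODE exon were left out, and a CCAAT box (CCAAT or its complement ATTGG) is in capitals. The start of Cox5a in the promoter table lies inside the gene as GENCODE annotates it. It also lies inside the span given for Cox5a below, so the 250 bases shown fall within that span.
Ndufa4, chr6:11907498-11907700, minus strand: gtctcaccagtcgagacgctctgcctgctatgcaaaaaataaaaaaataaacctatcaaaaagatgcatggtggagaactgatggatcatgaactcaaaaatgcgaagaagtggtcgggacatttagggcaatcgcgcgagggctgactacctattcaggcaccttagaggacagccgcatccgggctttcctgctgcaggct
Cox5a, chr9:57520982-57521231, plus strand: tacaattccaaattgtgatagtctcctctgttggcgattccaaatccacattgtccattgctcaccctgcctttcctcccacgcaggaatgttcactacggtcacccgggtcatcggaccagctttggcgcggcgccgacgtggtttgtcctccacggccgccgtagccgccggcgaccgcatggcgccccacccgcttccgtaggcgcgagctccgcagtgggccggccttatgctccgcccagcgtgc
Sdhb, chr4:140961021-140961202, plus strand: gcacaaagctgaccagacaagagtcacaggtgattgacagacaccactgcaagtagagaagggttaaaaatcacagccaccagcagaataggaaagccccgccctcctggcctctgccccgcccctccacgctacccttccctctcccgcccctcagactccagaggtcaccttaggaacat
Cox6b2, chr7:4753095-4753225, minus strand: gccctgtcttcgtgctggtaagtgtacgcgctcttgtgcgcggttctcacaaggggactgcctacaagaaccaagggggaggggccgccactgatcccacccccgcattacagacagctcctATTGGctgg

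On both strands, 5 words were searched in the 300-base windows: CCGGAAG for ETS factors, GCATGCGC for NRF1, AAGATGGC for YY1, CCAAT and TATAAA. NRF1, YY1 and the ETS factor GABP are known as regulators of nuclear genes for respiration. A gene was counted where any of its windows held the word. Among the 66 members, 16 (24.2%) held the ETS word, against 21.2% of the 9291 measured genes with a window. The NRF1 word was in 10 (15.2%), against 6.29%. The YY1 word was in 11 (16.7%), against 5.53%. CCAAT was in 29 (43.9%), against 43.3%, and TATAAA in 5 (7.58%), against 8.20%. Over all 27025 genes of the promoter table the shares were 9.93%, 3.05%, 3.19%, 41.1% and 15.7%, in the same order of words. These are matches of letters, not sites of binding.

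Neither Ndufa4 nor Cox5a held any of the 5 words, and Cox6b2 held CCAAT alone. The Sdhb window held the ETS word at position 6 after the start, CCAAT at -9 and the NRF1 word at -54, which is in capitals in the 30 bases around it.
Sdhb, chr4:140961206-140961235, plus strand: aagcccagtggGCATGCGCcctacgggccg

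In 9 of the 11 members with the YY1 word it read in the direction of the gene and lay within the 50 bases after the start, against 242 of the 514 measured genes with the word (47.1%). The 30 bases around it are shown, with the word in capitals, as the word whose share in members was highest relative to the measured genes, a choice made after the shares were seen. The word itself contains the letters ATG.
Ndufa3, chr7:3617384-3617413, plus strand: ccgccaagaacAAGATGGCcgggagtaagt
Ndufc1, chr3:51408915-51408944, minus strand: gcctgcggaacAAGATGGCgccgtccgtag
Atp5j2, chr5:145191500-145191529, minus strand: accaggacttcAAGATGGCgtcactcggtg
Ndufs7, chr10:80249462-80249491, plus strand: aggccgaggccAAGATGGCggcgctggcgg
Atp5sl, chr7:25619429-25619458, plus strand: cgttacctggcAAGATGGCggcgcccagag
Ndufa9, chr6:126849097-126849126, minus strand: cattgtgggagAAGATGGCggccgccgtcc
Ndufs6, chr13:73328433-73328462, minus strand: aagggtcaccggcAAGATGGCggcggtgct
Ndufs4, chr13:114388045-114388074, minus strand: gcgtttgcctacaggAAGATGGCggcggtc
Ndufb8, chr19:44555393-44555422, minus strand: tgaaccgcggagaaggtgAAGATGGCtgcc

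None of the 9 was among the 4 members with the widest range between groups. The promoters of 11 members, among them Ndufs1, Sdhc, Uqcrc2, Cox4i1 and Atp5a1, were not analysed here.

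The members were abundant, most with group means close together. All 77 lay in the upper part of the table, with 67 in the top 10% by mean RPKM and a median of 115 RPKM, against 13.2 RPKM for all genes. The lowest value of any member in any library was 9.77 RPKM, for Cox6b2 in a CLP_WT library. The ratio of the highest to the lowest of the 6 group means had a median of 1.21 over members and 1.49 over all genes kept. It was taken on RPKM without a pseudocount, and members were not set against genes of like level. The ratio was above 1.5 for 4 members, Ndufa4 (1.91), Cox6b2 (1.82), Cox5a (1.82) and Sdhb (1.76), and below 1.2 for 37. The highest group mean was that of MPP4_WT for 32 members and of CLP_HOMO for 28, and the lowest was that of HSC_HOMO for 46.

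**Figure D1:**
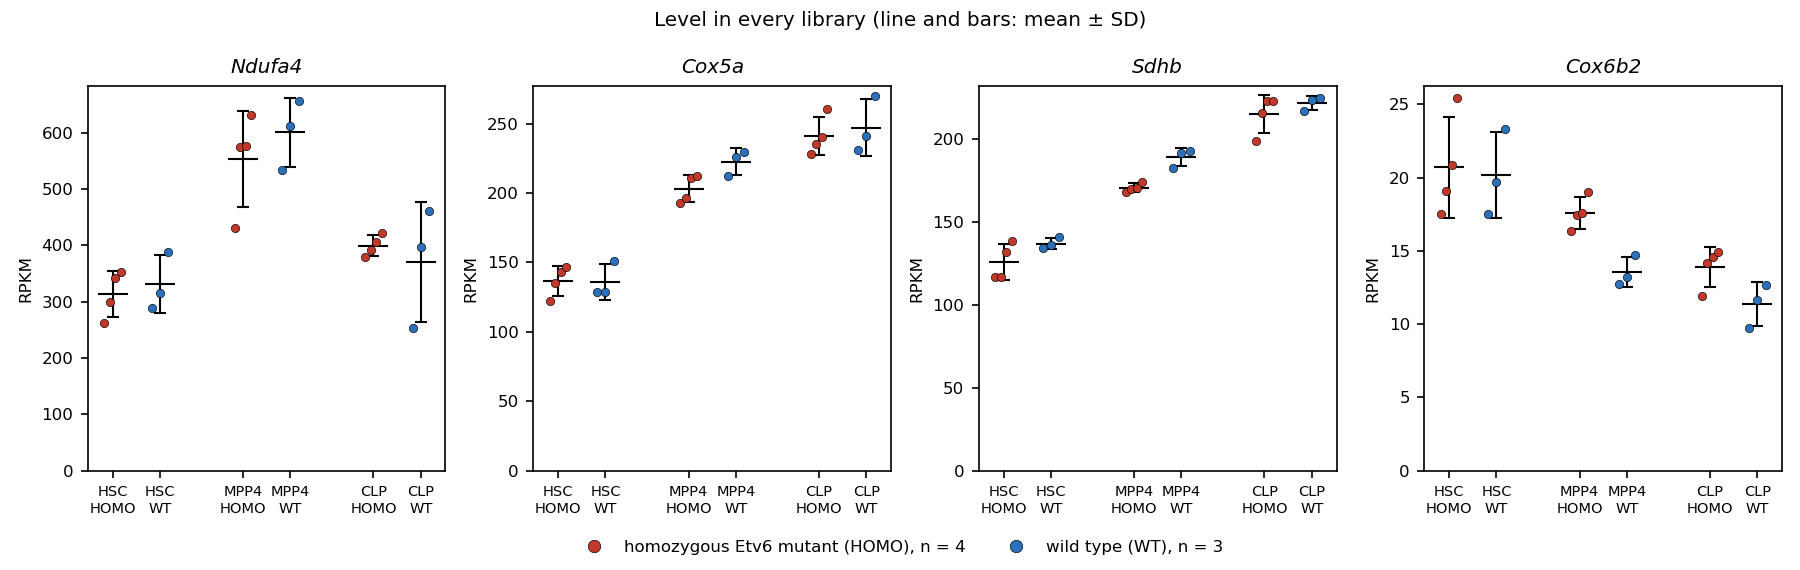
RPKM of Ndufa4, Cox5a, Sdhb and Cox6b2 in every library (points), with mean ± SD per group (lines and bars), for mutant (red, n = 4) and wild-type (blue, n = 3) HSC, MPP4 and CLP. Ndufa4 is highest in MPP4, Cox5a and Sdhb are lowest in HSC, and Cox6b2 is highest in HSC.

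Between populations, most members did not pass the test. A difference in the share of a cell type within a sorted sample and a difference in RNA per cell cannot be told apart in such bulk libraries. From HSC to MPP4 in wild-type mice, 9 members were called higher and 2 lower, where 16.1% of all genes were called higher and 23.3% lower. In the mutants the same comparison called 10 higher and 1 lower, against 16.0% and 23.1% of all genes. Of these, 8 members were called in the same direction in both genotypes (72.7% of each list). These comparisons share no libraries, but the fit took the spread of each gene from all 21 libraries. CLP against MPP4 called 1 higher and 1 lower in wild-type mice (1 higher and 4 lower with the replicate number as a block), with 4.77% and 8.38% of all genes, and 4 higher and 2 lower in mutants, with 7.86% and 16.4%. CLP against HSC called 6 higher and 5 lower in wild-type mice, with 19.4% and 31.7% of all genes, and 28 higher and 2 lower in mutants, with 21.8% and 36.0%. Of those, 7 were called the same way in both genotypes, which is 23.3% of the mutant calls and 63.6% of the wild-type calls. The shares of all genes called in both genotypes are not given here, so these overlaps cannot be set against them. On the RPKM as deposited, counts of members called were thus at or below the share over all genes in all comparisons but 1. That was the higher calls of mutant CLP against HSC.

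Scaling moved these splits. All genes kept had a median change of -0.10 in wild-type and -0.11 in mutant CLP against HSC, on the log2 scale. Scaling by median ratios brought these medians to -0.00 and -0.01. Under that scaling the wild-type calls of CLP against HSC became 15 higher and 1 lower, and the mutant calls 52 higher and 1 lower, while quantile normalization gave 4 higher and 8 lower in wild-type mice and 12 higher and 8 lower in mutants. For wild-type MPP4 against HSC these scalings gave 18 higher and 1 lower, and 7 higher and 3 lower. For the mutants they gave 15 higher and 1 lower, and 8 higher and 3 lower. Mutant CLP against MPP4 had 12 higher and 0 lower by median ratios, and 2 higher and 2 lower by quantiles. Wild-type CLP against MPP4 had 1 higher and 2 lower by quantiles. The shares of all genes called under these scalings are not given here, so the counts cannot be set against them.

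**Figure D2:**
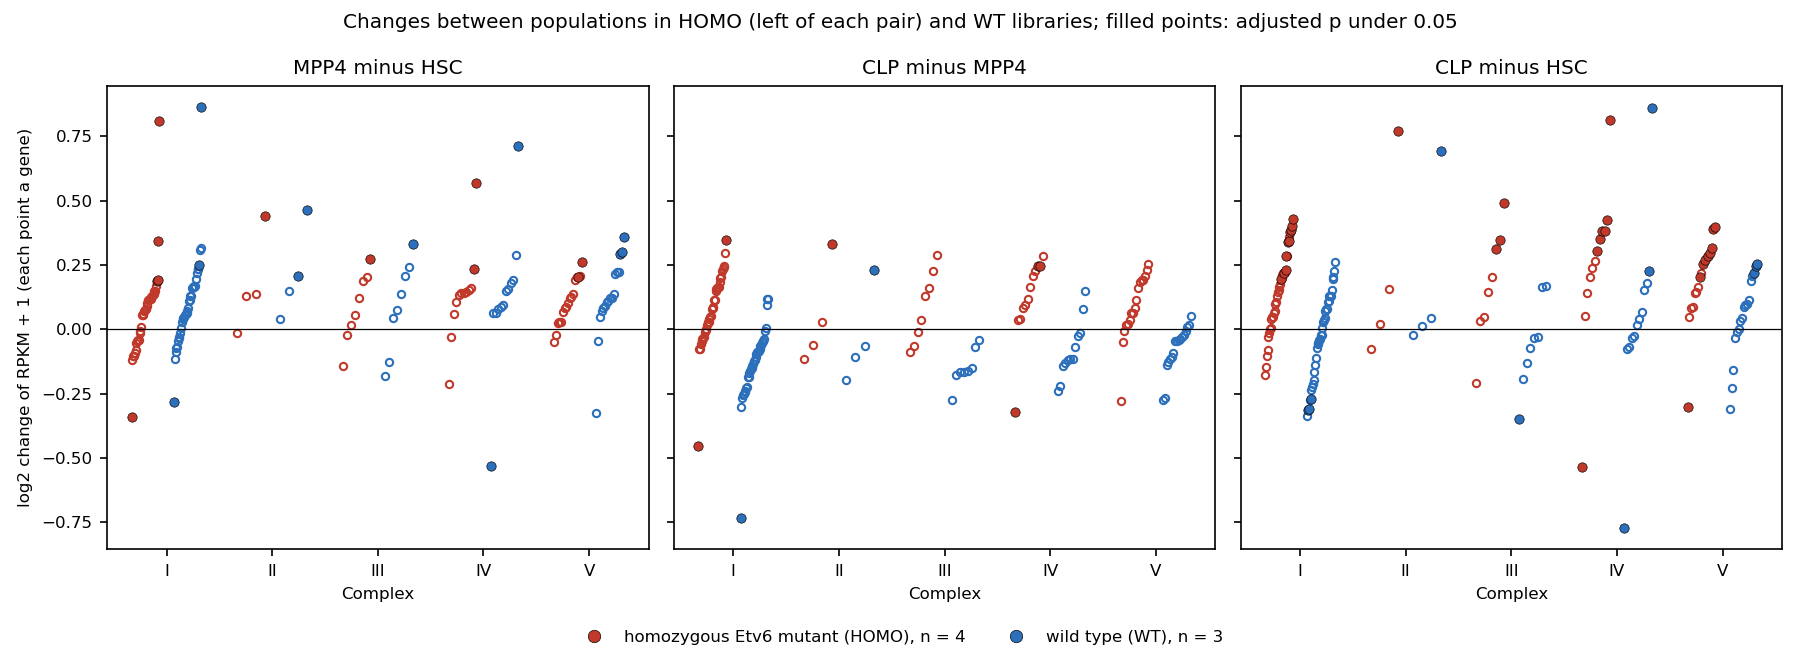
log2 change of each member (points) by complex, for MPP4 against HSC, CLP against MPP4 and CLP against HSC, with mutant comparisons (red) left of wild-type ones (blue) and called members filled. Ndufa4 reaches 0.81 in the mutants and 0.86 in wild-type mice in the first panel, and most other members lie within 0.5 of 0.

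Complex I, the NADH dehydrogenase, had a mean member level of 6.41 ± 0.12 in HSC_HOMO and 6.48 ± 0.11 in HSC_WT, 6.48 ± 0.13 in MPP4_HOMO and 6.58 ± 0.05 in MPP4_WT, and 6.56 ± 0.11 in CLP_HOMO and 6.45 ± 0.19 in CLP_WT, all on the log2(RPKM + 1) scale. The libraries of the 6 groups overlapped. Its members ranged from Ndufa11, with a mean of 13.7 RPKM over all libraries, to Ndufa4, with 427 RPKM.

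Ndufa4 (chr6:11900372-11907450) had 431, 574, 575 and 631 RPKM in MPP4_HOMO, against 262, 352, 300 and 342 RPKM in HSC_HOMO. In wild-type mice it had 656, 534 and 612 RPKM in MPP4 and 289, 316 and 388 RPKM in HSC. Every MPP4 library was above every HSC library. The change was 0.81 (SE 0.15, adjusted p = 0.000267) in mutants and 0.86 (SE 0.18, adjusted p = 0.0006001) in wild-type mice, and both calls held under every alternative run.

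In CLP, Ndufa4 was lower again, with 380, 406, 422 and 391 RPKM in CLP_HOMO and 462, 254 and 397 RPKM in CLP_WT. Against MPP4 it fell by 0.45 in mutants (SE 0.15, adjusted p = 0.03611) and by 0.73 in wild-type mice (SE 0.18, adjusted p = 0.007424). The wild-type difference rested partly on the library of replicate 2: without it the value was -0.48 and the adjusted p 0.0579. The mutant call was lost without CLP_HOMO replicate 1, 2 or 4 or MPP4_HOMO replicate 2, 3 or 4, with values between -0.46 and -0.39 and adjusted p from 0.0629 to 0.113, and under median-ratio scaling (-0.38, adjusted p = 0.0675). Under every alternative run the change was negative, between -0.57 and -0.38 in mutants and between -0.91 and -0.48 in wild-type mice, so that its call and not its direction depended on the libraries and scaling. Ndufa4 thus peaked in MPP4 in both genotypes by mean.

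Among the subunits of complex I that carry its electrons, Ndufs1, the largest iron-sulfur subunit, had group means of 27.0 to 31.8 RPKM, and Ndufv1, which binds NADH and the flavin, had 90.4 to 103 RPKM. Neither Ndufs1 nor Ndufv1 was called in any comparison. Ndufs7, an iron-sulfur subunit near the site of ubiquinone, averaged 149 ± 8.40 RPKM in CLP_WT against 185 ± 14.1 in HSC_WT and was called lower (-0.31, adjusted p = 0.00675), a call lost under median-ratio scaling (-0.20, adjusted p = 0.0556). Ndufv3, a small accessory subunit, was called lower in MPP4 than in HSC in both genotypes. It averaged 35.1 ± 3.68 RPKM in MPP4_HOMO against 44.6 ± 3.47 in HSC_HOMO (-0.34, adjusted p = 0.0059), and 37.7 ± 2.01 in MPP4_WT against 46.2 ± 5.12 in HSC_WT (-0.28, adjusted p = 0.0411). The mutant call held under every alternative run. The wild-type call was lost without HSC_WT replicate 3 (-0.19, adjusted p = 0.202), without MPP4_WT replicate 2 or 3 (adjusted p = 0.102 and 0.118) and in 3 of the 14 other settings, among them median-ratio scaling (-0.23, adjusted p = 0.0756).

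Among the accessory subunits, Ndufb9 averaged 153 ± 26.8 RPKM in CLP_WT against 188 ± 5.29 in HSC_WT and was called lower (-0.31, adjusted p = 0.0442). That call was lost without CLP_WT replicate 2 (-0.16, adjusted p = 0.298), without any of the 3 HSC_WT libraries (adjusted p from 0.0656 to 0.104) and in 4 of the 14 other settings, among them median-ratio scaling (-0.20, adjusted p = 0.159). In mutants, 10 of the 36 members of complex I were called higher in CLP than in HSC, with 0 lower. Of all genes, 21.8% were called higher and 36.0% lower in that comparison. Ndufb7 averaged 146 ± 4.22 against 108 ± 13.7 RPKM (0.43, adjusted p = 0.00245), and Ndufb11, encoded on the X chromosome, averaged 108 ± 10.6 against 82.2 ± 11.2 RPKM (0.40, adjusted p = 0.00918). Ndufb11 was also called higher in CLP_HOMO than in MPP4_HOMO (0.35, adjusted p = 0.0478), and Ndufb7 higher in MPP4_HOMO than in HSC_HOMO (0.34, adjusted p = 0.0188). The Ndufb11 call against MPP4_HOMO was lost on leaving out any library but CLP_HOMO replicate 1, with adjusted p up to 0.153, and in 6 of the 14 other settings. That of Ndufb7 in MPP4 was lost without HSC_HOMO replicate 1 or 3 or MPP4_HOMO replicate 2, with adjusted p up to 0.0685. The differences between genotypes in these steps were tested as differences of mutant effects, described below, and 0 members were called.

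**Figure D3:**
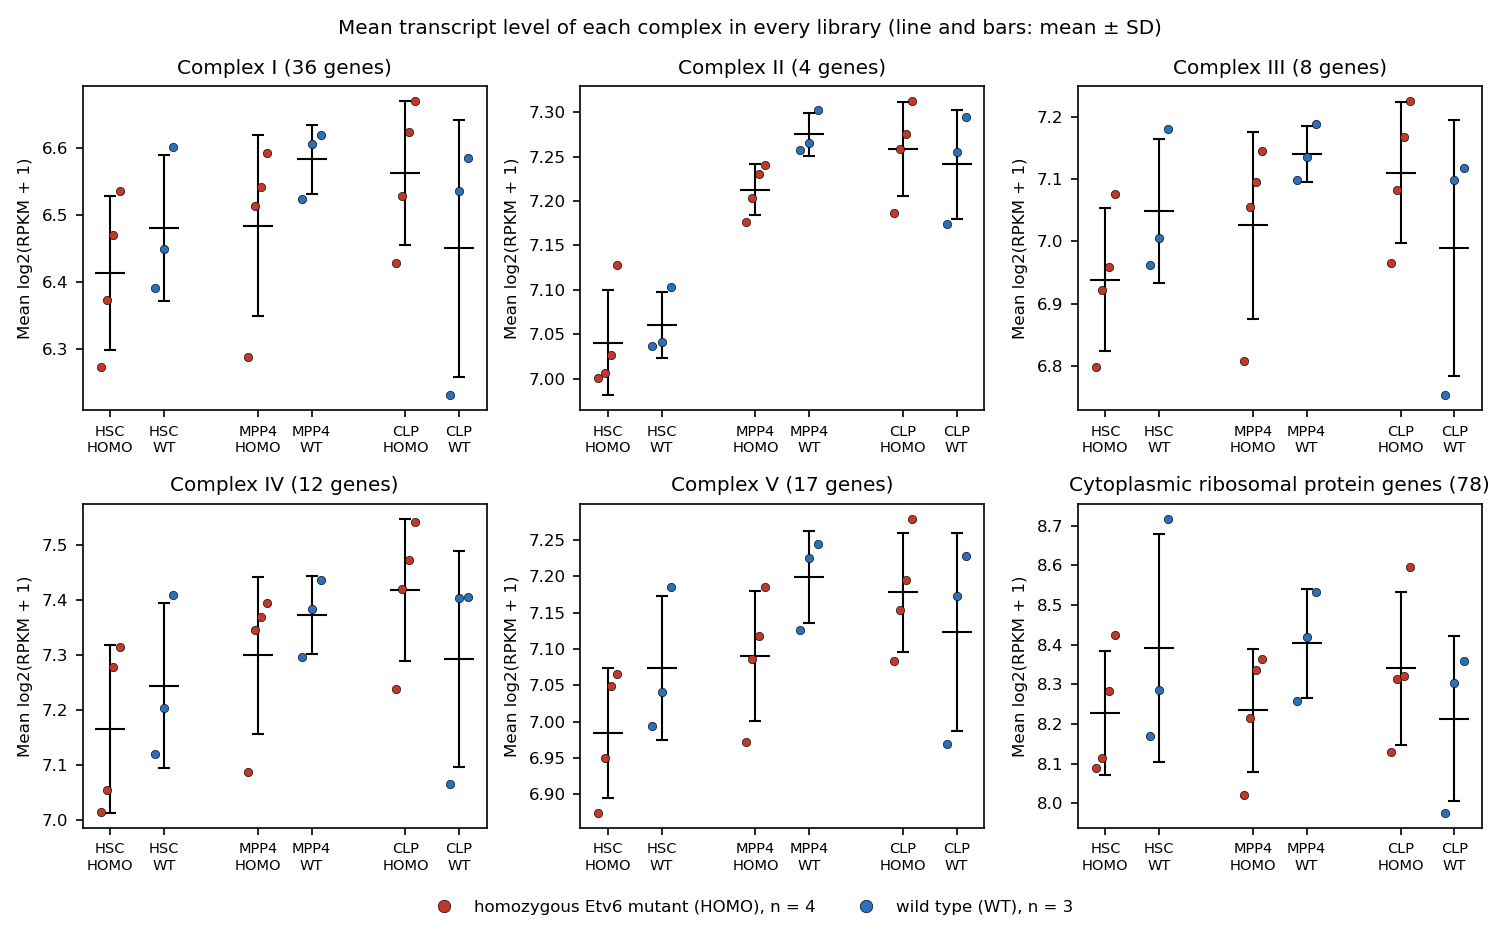
Mean log2(RPKM + 1) over the members of each complex in every library (points), with mean ± SD per group (lines and bars), and the same for 78 cytoplasmic ribosomal protein genes. Complex II separates HSC from MPP4 and CLP, while for each other complex the 7 HSC libraries overlap the 14 MPP4 and CLP libraries.

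Complex II, succinate dehydrogenase, belongs to the respiratory chain and to the citric acid cycle. Its mean level was 7.04 ± 0.06 in HSC_HOMO and 7.06 ± 0.04 in HSC_WT, 7.21 ± 0.03 in MPP4_HOMO and 7.28 ± 0.02 in MPP4_WT, and 7.26 ± 0.05 in CLP_HOMO and 7.24 ± 0.06 in CLP_WT, on the log2(RPKM + 1) scale. All 14 MPP4 and CLP libraries were above all 7 HSC libraries.

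Sdhb, the iron-sulfur subunit (chr4:140961271-140979198), carried most of that difference. It had 168, 174, 170 and 171 RPKM in MPP4_HOMO, against 132, 117, 117 and 138 RPKM in HSC_HOMO. The wild-type libraries had 183, 193 and 192 RPKM in MPP4 and 141, 136 and 134 RPKM in HSC. It rose by 0.44 in mutants (SE 0.06, adjusted p = 7.602e-06) and by 0.46 in wild-type mice (SE 0.07, adjusted p = 2.402e-05).

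In CLP, Sdhb had 199, 223, 223 and 216 RPKM in the mutants and 223, 225 and 217 RPKM in wild-type mice. Within each genotype the 3 populations did not overlap, in the order HSC, MPP4, CLP. CLP was above MPP4 by 0.33 in mutants (SE 0.06, adjusted p = 0.00034) and by 0.23 in wild-type mice (SE 0.07, adjusted p = 0.0335), and above HSC by 0.77 (adjusted p = 1.146e-09) and 0.69 (adjusted p = 6.453e-08). Of these 6 calls, that of wild-type CLP against MPP4 was lost on leaving out any of its 6 libraries, with adjusted p from 0.055 to 0.132. It was also lost in 2 of the 14 other settings.

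The other subunits of complex II had smaller changes. Sdha, the flavin subunit, had group means of 209 to 221 RPKM and was called nowhere, and Sdhd, a membrane anchor, had 131 to 152 RPKM and was called nowhere. Sdhc, the other membrane anchor, averaged 88.8 ± 2.07 RPKM in MPP4_WT against 76.9 ± 3.16 in HSC_WT (0.21, adjusted p = 0.0247), and was not called in the mutants, at 88.3 ± 1.91 against 80.3 ± 4.28 RPKM (0.14). The wild-type call was lost without HSC_WT replicate 1 or 2 or MPP4_WT replicate 1, and in 2 of the 14 other settings, with adjusted p up to 0.0806.

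Complex III, the cytochrome bc1 complex, had mean levels of 6.94 ± 0.11 in HSC_HOMO and 7.05 ± 0.12 in HSC_WT, 7.03 ± 0.15 in MPP4_HOMO and 7.14 ± 0.04 in MPP4_WT, and 7.11 ± 0.11 in CLP_HOMO and 6.99 ± 0.20 in CLP_WT, on the log2(RPKM + 1) scale. Uqcrfs1, the Rieske iron-sulfur protein that passes electrons towards cytochrome c, had 83.9, 81.0, 78.1 and 91.9 RPKM in MPP4_HOMO against 68.8, 66.3, 67.2 and 73.8 RPKM in HSC_HOMO, and 96.8, 88.8 and 90.8 RPKM in MPP4_WT against 68.4, 70.4 and 80.6 RPKM in HSC_WT. The MPP4 and HSC libraries did not overlap in either genotype. The change was 0.27 in mutants (adjusted p = 0.00449) and 0.33 in wild-type mice (adjusted p = 0.00315), and both calls held under every alternative run.

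The core subunits Uqcrc1 and Uqcrc2 were steady, with group means of 213 to 236 RPKM and 72.3 to 81.8 RPKM, and neither was called. Some small subunits were called in CLP against HSC, in 1 genotype each. Uqcrq averaged 104 ± 8.87 RPKM in CLP_HOMO against 74.1 ± 8.80 in HSC_HOMO (0.49, adjusted p = 0.00117), and Uqcr10 200.3 ± 27.1 against 157 ± 22.2 RPKM (0.35, adjusted p = 0.0478). Uqcrb averaged 172 ± 22.4 RPKM in CLP_WT against 219 ± 30.3 in HSC_WT (-0.35, adjusted p = 0.0289). The Uqcrb call was lost without CLP_WT replicate 2 (-0.23, adjusted p = 0.164), without HSC_WT replicate 3 (-0.24, adjusted p = 0.158) and in 3 of the 14 other settings, among them median-ratio scaling (-0.24, adjusted p = 0.110). That of Uqcr10 was lost without CLP_HOMO replicate 2, 3 or 4 or HSC_HOMO replicate 1 or 3 (adjusted p up to 0.166), and in 5 of the 14 other settings, with 0.15 by quantiles.

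Complex IV, cytochrome c oxidase, had mean levels of 7.17 ± 0.15 in HSC_HOMO and 7.24 ± 0.15 in HSC_WT, 7.30 ± 0.14 in MPP4_HOMO and 7.37 ± 0.07 in MPP4_WT, and 7.42 ± 0.13 in CLP_HOMO and 7.29 ± 0.20 in CLP_WT, on the log2(RPKM + 1) scale. It held 2 of the 4 members with the widest range, which moved in opposite directions.

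Cox5a, a nuclear subunit that binds next to the catalytic core (chr9:57517328-57532427), had 212, 197, 193 and 211 RPKM in MPP4_HOMO, against 136, 146, 122 and 143 RPKM in HSC_HOMO. In wild-type mice it had 226, 212 and 230 RPKM in MPP4 and 128, 151 and 129 RPKM in HSC. It rose by 0.57 in mutants (SE 0.07, adjusted p = 3.865e-06) and by 0.71 in wild-type mice (SE 0.09, adjusted p = 1.445e-06), with no overlap between populations.

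The CLP libraries had 228, 260, 236 and 240 RPKM of Cox5a in the mutants and 231, 270 and 241 RPKM in wild-type mice. Against HSC the change was 0.81 in mutants (adjusted p = 1.098e-08) and 0.86 in wild-type mice (adjusted p = 5.512e-08). The step from MPP4 to CLP was called in mutants (0.24, adjusted p = 0.02) and not in wild-type mice, where it was 0.15. The mutant call of that step was lost without CLP_HOMO replicate 2 or MPP4_HOMO replicate 2 or 3, with adjusted p up to 0.0749, and under quantile normalization (0.19, adjusted p = 0.128). The gene Gm26631 overlaps Cox5a in the annotation, and the libraries do not mark strand, so reads of the pair cannot be told apart.

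Cox6b2 (chr7:4751792-4753094), a paralogue of Cox6b1 known from testis, went down. In wild-type mice it had 12.8, 14.7 and 13.2 RPKM in MPP4 and 17.5, 19.7 and 23.3 RPKM in HSC, with no overlap (-0.53, SE 0.13, adjusted p = 0.0027). The mutant libraries had 16.4, 19.0, 17.6 and 17.4 RPKM in MPP4 and 19.1, 25.5, 17.5 and 20.8 RPKM in HSC, which overlapped, and the change of -0.21 was not called. The CLP libraries had 11.9, 14.2, 14.9 and 14.6 RPKM in mutants and 12.7, 9.77 and 11.6 RPKM in wild-type mice, lower than HSC by -0.53 (adjusted p = 0.000408) and -0.77 (adjusted p = 4.74e-05).

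Cox6b1, its abundant paralogue, had group means of 280 to 308 RPKM and was called nowhere. Cox6b2 made up 6.90% ± 0.74 of the RPKM of the pair in HSC_HOMO and 6.38% ± 0.45 in HSC_WT, 5.55% ± 0.33 in MPP4_HOMO and 4.22% ± 0.39 in MPP4_WT, and 4.32% ± 0.11 in CLP_HOMO and 3.87% ± 0.29 in CLP_WT. Its share thus stayed under 8% in every library.

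The other complex IV members with fixed roles were steadier. Cox5b, a zinc-binding subunit, had group means of 163 to 189 RPKM, and Cox7a2l, known for linking complexes III and IV, had 75.7 to 90.1 RPKM, and neither was called. Cox4i1, the regulatory subunit IV, averaged 375 ± 49.5 RPKM in CLP_HOMO against 287 ± 26.1 in HSC_HOMO (0.38, adjusted p = 0.0119), and 334 ± 67.7 in CLP_WT against 322 ± 45.0 in HSC_WT, which was not called. Cox8a, the smallest subunit, was called in mutants in MPP4 against HSC, at 346 ± 17.4 against 295 ± 32.0 RPKM (0.23, adjusted p = 0.0326), and in CLP against HSC, at 376 ± 18.6 RPKM (0.35, adjusted p = 0.00125). Cox7a2 averaged 129 ± 15.8 RPKM in CLP_HOMO against 105 ± 15.7 in HSC_HOMO (0.31, adjusted p = 0.0464). Cox6c, at 291 ± 21.1 against 218 ± 30.4 RPKM (0.43, adjusted p = 0.0129), and Cox6a1, at 334 ± 23.8 against 256 ± 22.7 RPKM (0.38, adjusted p = 0.000435), were called in the same comparison, and Cox6a1 in wild-type mice as well (0.23, adjusted p = 0.0479). Cox6a1 was also higher in CLP_HOMO than in MPP4_HOMO (0.25, adjusted p = 0.0308), and Cox6b2 lower (-0.32, adjusted p = 0.0426).

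Some of these calls were lost on leaving out 1 library. That of Cox7a2 was lost without CLP_HOMO replicate 2, 3 or 4 or HSC_HOMO replicate 1 or 3, with adjusted p up to 0.150. It was also lost in 5 of the 14 other settings, with 0.16 by quantiles (adjusted p = 0.243). The Cox8a call in MPP4 was lost without HSC_HOMO replicate 1 or 3 or MPP4_HOMO replicate 2, 3 or 4, with adjusted p up to 0.129, and by quantiles, at 0.09. The Cox6c call was lost without HSC_HOMO replicate 1 (0.35, adjusted p = 0.0504) and by quantiles (0.23). The Cox6a1 call in wild-type CLP against HSC was lost on leaving out any of its libraries but HSC_WT replicate 3, with a change of 0.13 and an adjusted p of 0.274 lacking HSC_WT replicate 1. That call was also lost in 4 of the 14 other settings, with an adjusted p of 0.175 with only the groups compared. The Cox6a1 call against MPP4_HOMO was lost without CLP_HOMO replicate 2 or 3 or MPP4_HOMO replicate 1, 3 or 4, with adjusted p up to 0.101. The Cox6b2 call against MPP4_HOMO was lost without CLP_HOMO replicate 1 or 2 or MPP4_HOMO replicate 2, 3 or 4, with adjusted p up to 0.138, and under median-ratio scaling (-0.25). The table does not list Ndufa4l2, Cox4i2 or Cox7a1, tissue-specific or hypoxia-linked forms, and they were not analysed here.

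Complex V, the ATP synthase, had mean levels of 6.98 ± 0.09 in HSC_HOMO and 7.07 ± 0.10 in HSC_WT, 7.09 ± 0.09 in MPP4_HOMO and 7.20 ± 0.06 in MPP4_WT, and 7.18 ± 0.08 in CLP_HOMO and 7.12 ± 0.14 in CLP_WT, on the log2(RPKM + 1) scale. Atp5b, the catalytic beta subunit, was the most abundant of all 77 members, with 693 RPKM over all libraries.

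Atp5b had 708, 700, 679 and 721 RPKM in MPP4_HOMO against 626, 599, 600 and 613 RPKM in HSC_HOMO, and 785, 739 and 758 RPKM in MPP4_WT against 656, 622 and 588 RPKM in HSC_WT. The populations did not overlap, and the change was 0.20 in mutants (adjusted p = 0.0101) and 0.29 in wild-type mice (adjusted p = 0.00208). Under quantile normalization these were 0.11 (adjusted p = 0.383) and 0.25 (adjusted p = 0.0685), and neither was called. Atp5a1, the alpha subunit that alternates with beta, had group means of 379 to 412 RPKM and was called nowhere. Atp5o, the stalk subunit that confers oligomycin sensitivity, averaged 143 ± 8.42 RPKM in MPP4_HOMO against 119 ± 8.08 in HSC_HOMO (0.26, adjusted p = 0.00696), and 165 ± 7.56 in MPP4_WT against 128 ± 9.19 in HSC_WT (0.36, adjusted p = 0.00194).

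Atp5f1, subunit b of the same stalk (listed by RefSeq as Atp5pb), averaged 61.0 ± 2.21 RPKM in MPP4_WT against 49.5 ± 5.01 in HSC_WT (0.30, adjusted p = 0.0186). In CLP against HSC it averaged 63.5 ± 6.77 against 48.1 ± 3.81 RPKM in mutants (0.39, adjusted p = 0.000531) and 59.1 ± 4.59 against 49.5 ± 5.01 RPKM in wild-type mice (0.25, adjusted p = 0.035). The wild-type calls were lost without HSC_WT replicate 2 or 3 and without MPP4_WT replicate 1 for MPP4 (adjusted p up to 0.0871), and without HSC_WT replicate 2 or 3 or CLP_WT replicate 1 or 3 for CLP (adjusted p up to 0.139). Atp5j2, subunit f, was called in mutant CLP against HSC alone, at 223 ± 26.8 against 170 ± 22.9 RPKM (0.40, adjusted p = 0.00319), and not under quantile normalization (0.19, adjusted p = 0.0704). Atp5s was the one member of complex V called lower in any comparison, with 16.5 ± 2.69 RPKM in CLP_HOMO against 20.4 ± 1.93 in HSC_HOMO (-0.30, adjusted p = 0.0327). That call was lost without CLP_HOMO replicate 2 (-0.18, adjusted p = 0.158), without HSC_HOMO replicate 3 or 4, and under median-ratio scaling (-0.19, adjusted p = 0.167).

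The proton-conducting c ring is encoded by 3 genes whose mature proteins are known to be identical. Atp5g3 made up 36.7% to 43.6% of their summed RPKM over all libraries, Atp5g2 28.3% to 34.8% and Atp5g1 27.0% to 31.2%. Group means of the Atp5g3 share were 39.2% ± 2.2 in HSC_HOMO and 39.6% ± 3.1 in HSC_WT, 40.7% ± 1.4 in MPP4_HOMO and 40.5% ± 0.7 in MPP4_WT, and 41.4% ± 1.0 in CLP_HOMO and 42.3% ± 1.6 in CLP_WT. The groups overlapped. Of the levels, Atp5g3 (217 ± 14.7 against 174 ± 17.3 RPKM, adjusted p = 0.00238) and Atp5g1 (147 ± 12.4 against 128 ± 10.3 RPKM, adjusted p = 0.0295) were called higher in CLP_HOMO than in HSC_HOMO, and Atp5g2, at 160 ± 11.3 against 143 ± 13.5 RPKM, was not. Under quantile normalization the change of Atp5g3 was 0.11 in place of 0.32 and that of Atp5g1 0.05 in place of 0.20, and neither was called. The Atp5g1 call was also lost without HSC_HOMO replicate 1 or 3 or CLP_HOMO replicate 2 or 3, with adjusted p up to 0.105.

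No member was called between genotypes. In HSC, MPP4 and CLP, limma called 0 of 77 members, where it called 0.0522%, 0.217% and 0% of all genes, and this held under every alternative and with each library left out. At an unadjusted p under 0.05 there were 1, 4 and 1 members, against 4.45%, 8.14% and 4.41% of all genes. The smallest adjusted p among members was 0.9996 in HSC, 0.3465 in MPP4 and 0.9998 in CLP. In simulated data the same fit recovered 46 of 100 changes of 0.5 for HSC_HOMO against HSC_WT, so small changes may go uncalled.

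Small shifts ran in 1 direction within a population. In HSC, 67 of 77 members were below 0, with a median change of -0.09, against 0.01 for all genes. In MPP4, 72 were below 0, with a median of -0.11, against 0.02. In CLP, 66 were above 0, with a median of 0.09, against 0.00. By complex, the medians for I to V were -0.08, -0.01, -0.09, -0.09 and -0.10 in HSC, -0.10, -0.05, -0.10, -0.10 and -0.13 in MPP4, and 0.09, 0.02, 0.09, 0.13 and 0.07 in CLP. Cytoplasmic ribosomal protein genes, which are short and abundant as well, shifted further the same way, by -0.16 in HSC, -0.17 in MPP4 and 0.13 in CLP, with 78, 78 and 74 of 78 genes on that side. Mitochondrial ribosomal protein genes shifted by -0.06, -0.07 and 0.08.

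In MPP4, markers of other populations moved with the genotype as well. The 10 stem cell markers summed to 97.5 to 121 RPKM in MPP4_HOMO against 43.3 to 64.7 in MPP4_WT, with 9 above 0, a median change of 0.63 and 2 called higher. The 6 MPP4 markers summed to 1199 to 1414 RPKM in MPP4_HOMO against 1660 to 1973 in MPP4_WT, with 0 above 0, a median of -0.36 and 0 called. The 7 measured CLP markers had a median of -0.63, with 1 called lower, and the 6 plasmacytoid dendritic cell markers, at 152 to 167 RPKM in MPP4_HOMO against 199.6 to 245 in MPP4_WT, a median of -0.51, with 2 called lower. All 9 measured erythroid markers were above 0, with 0 called. Their part in the shift of the members in MPP4 was not tested. In HSC and CLP, 0 genes of these lists were called between genotypes.

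**Figure D4:**
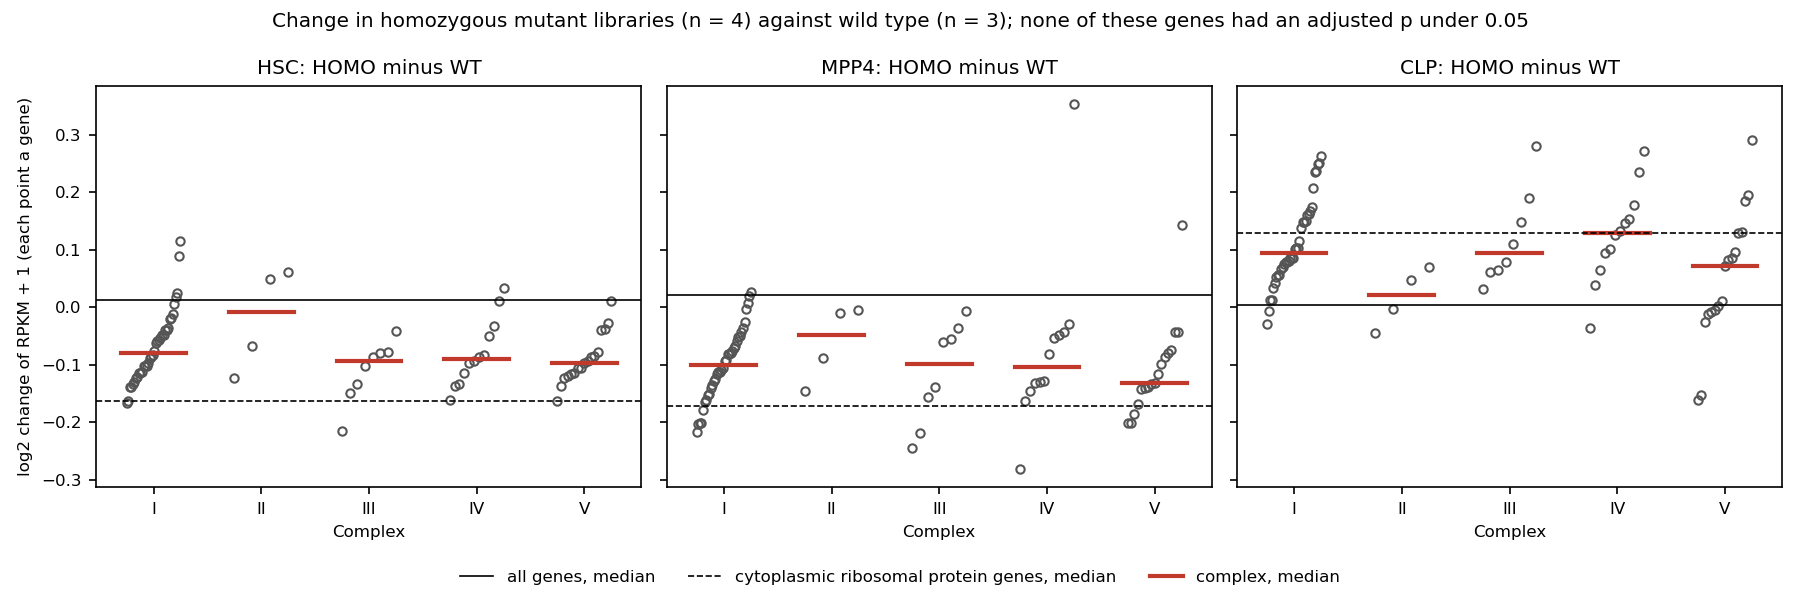
log2 change of each member (open points) in mutant against wild-type HSC, MPP4 and CLP, by complex, with the complex median (red), the median of all genes (solid line) and that of cytoplasmic ribosomal protein genes (dashed line). Members lie mostly below 0 in HSC and MPP4 and above 0 in CLP, on the side of the dashed line.

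These medians rested on few libraries. The HSC median was -0.01 without HSC_WT replicate 3 and -0.04 without HSC_HOMO replicate 1. The MPP4 median was -0.04 without MPP4_HOMO replicate 1. The CLP median was -0.01, turning its direction, without CLP_WT replicate 2, 0.16 without CLP_WT replicate 1, 0.13 without CLP_HOMO replicate 1 and 0.05 without CLP_HOMO replicate 3. Scaling and library weights moved the medians as well. In HSC, MPP4 and CLP they were -0.03, -0.04 and 0.06 by quantiles, and -0.03, -0.07 and 0.04 with library weights. Median-ratio scaling gave -0.10, -0.13 and 0.08. The mean deviation of the members from the group mean, on the log2 scale, ran in HSC_HOMO between -0.13 (replicate 1) and 0.12 (replicate 4), and in HSC_WT between -0.09 (replicate 1) and 0.12 (replicate 3). It ran in MPP4_HOMO between -0.17 (replicate 1) and 0.10 (replicate 4), and in MPP4_WT between -0.06 and 0.04. In CLP_HOMO it lay between -0.13 (replicate 1) and 0.11 (replicate 3), and in CLP_WT between -0.20 (replicate 2) and 0.12 (replicate 1).

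Genes outside the respiratory chain deviated with the members. The mean over 1315 other genes with a protein of at most 200 residues deviated by -0.12 in HSC_HOMO replicate 1, -0.14 in MPP4_HOMO replicate 1, -0.15 in CLP_HOMO replicate 1 and -0.10 in CLP_WT replicate 2, and by 0.07 in HSC_WT replicate 3 and 0.08 in CLP_HOMO replicate 3. Over all 21 libraries the sign was shared in 19, although deviations within a group sum to 0 and so are not independent. Of the 77 members, 56 have a protein of at most 200 residues, against 12.3% of the genes kept, and the median protein has 143 residues against 471. The 21 members with longer proteins had median changes of -0.05 in HSC, -0.08 in MPP4 and 0.04 in CLP, against -0.10, -0.11 and 0.11 for the 56 shorter ones. With the mean of those 1315 genes as a covariate, chosen after seeing the data, 0 members were called, as without it. The median change of the members with the covariate was -0.02 in HSC, -0.12 in MPP4 and 0.02 in CLP, against -0.09, -0.11 and 0.09 without it. What part transcript length or its recovery had in these shifts was not tested.

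**Figure D5:**
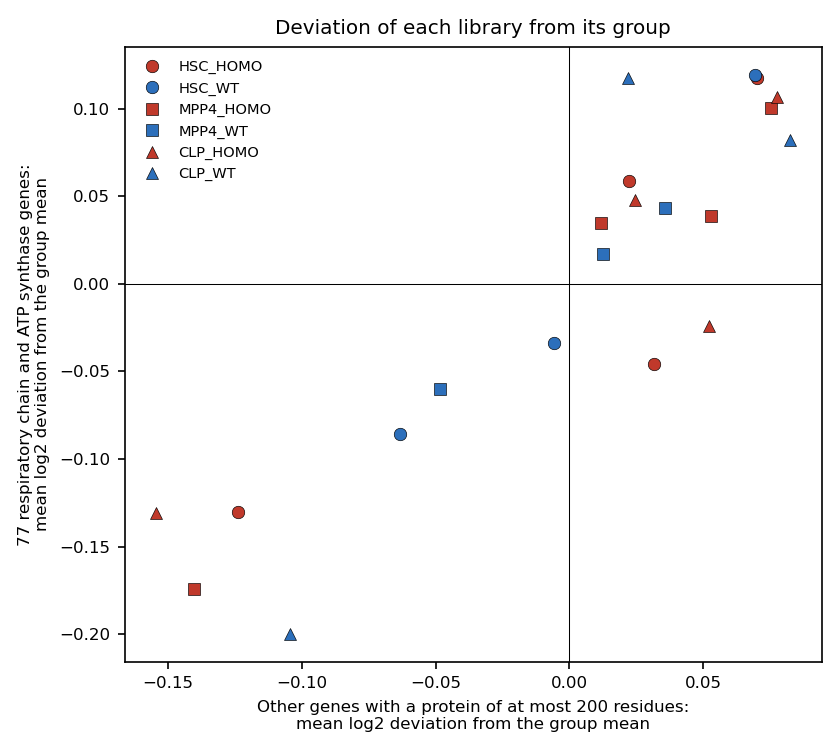
Mean log2 deviation of each library from its group mean, for the 77 members (vertical) and for 1315 other genes with a protein of at most 200 residues (horizontal), by population (shape) and genotype (red mutant, blue wild type). MPP4_HOMO replicate 1 and CLP_WT replicate 2 lie lowest, at -0.17 and -0.20 for the members, and are also low for the other short genes.

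The members nearest the threshold in each complex were as follows. In HSC they were Ndufs8, an iron-sulfur subunit, at 75.3 ± 5.95 RPKM in mutants and 84.4 ± 3.55 in wild-type mice, Sdhb (-0.12), Uqcrq (-0.22), Cox8a and Atp5g1, each with an adjusted p of 0.9996. In MPP4, Sdhb averaged 171 ± 2.52 RPKM in mutants and 189 ± 5.66 in wild-type mice (-0.15, adjusted p = 0.566). Atp5o averaged 143 ± 8.42 and 165 ± 7.56 RPKM (-0.20, adjusted p = 0.457), and Cox6b2 17.6 ± 1.08 and 13.6 ± 1.03 RPKM (0.35, adjusted p = 0.347). The 2 genotypes did not overlap for these 3 genes, as for 6.68% of all genes in the higher and 3.41% in the lower direction. Ndufa8 and Uqcr11 were nearest in complexes I and III, with adjusted p of 0.741 and 0.673. In CLP they were Ndufb11, Sdhc, Uqcr10, Cox6b2 and Atp5k. Cox6b2 averaged 13.9 ± 1.34 RPKM in mutants and 11.4 ± 1.49 in wild-type mice (0.27, adjusted p = 0.9998).

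Differences of the mutant effect between populations were tested directly. limma called 0 of 77 members in each of the 3 comparisons, where it called 0%, 0% and 0.00870% of all genes, and at an unadjusted p under 0.05 there were 0, 2 and 0 members, against 3.79%, 3.84% and 3.65% of all genes. The 2 members were Ndufb11 (0.45, SE 0.19) and Uqcr11 (0.39, SE 0.18), for CLP against MPP4, each with an adjusted p of 0.9983. In that comparison the smallest p of complexes II, IV and V belonged to Sdhd, Cox4i1 and Atp5k. For MPP4 against HSC the smallest p per complex belonged to Ndufs3, Sdhc, Uqcr11, Cox6b2 and Atp5s, and for CLP against HSC to Ndufs8, Sdhd, Uqcrq, Cox4i1 and Atp5k. The median difference was -0.03 for MPP4 minus HSC, 0.18 for CLP minus MPP4 and 0.18 for CLP minus HSC, against 0.01, 0.29 and 0.29 for cytoplasmic ribosomal protein genes. The larger number of calls in mutant than in wild-type CLP against HSC, 30 and 11, was therefore not matched by any member whose change differed between genotypes past the threshold.

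Genes that act around the respiratory chain were given from lists chosen by function. Their counts stand against the shares of all genes called higher and lower, which in wild-type mice were 16.1% and 23.3% for MPP4 against HSC, 4.77% and 8.38% for CLP against MPP4, and 19.4% and 31.7% for CLP against HSC. Cycs, which encodes the cytochrome c that links complexes III and IV, rose in MPP4 to 32.4 ± 3.76 RPKM in mutants, against 20.5 ± 1.66 in HSC_HOMO (0.64, adjusted p = 3.324e-05), and to 36.0 ± 1.05 RPKM in wild-type mice, against 21.7 ± 3.49 in HSC_WT (0.72, adjusted p = 4.515e-05). Of 16 electron carrier genes measured, 1 was called higher and 2 lower in wild-type MPP4 against HSC, 0 and 2 in CLP against MPP4, and 1 and 5 in CLP against HSC. Etfb, which feeds electrons from fatty acid oxidation, averaged 127 ± 19.3 RPKM in CLP_WT against 219 ± 6.42 in HSC_WT (-0.79, adjusted p = 6.007e-06). Gpd2, the mitochondrial glycerol phosphate dehydrogenase, averaged 10.9 ± 0.37 RPKM in MPP4_WT against 15.5 ± 0.18 in HSC_WT (-0.47, adjusted p = 0.00062).

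Of 30 factors for complexes II to V, 0 were called higher and 2 lower in wild-type MPP4 against HSC, and 0 and 9 in CLP against HSC, where 31.7% of all genes were lower. Bcs1l, which inserts the Rieske protein, averaged 13.5 ± 1.53 RPKM in CLP_WT against 19.5 ± 1.09 in HSC_WT (-0.50, adjusted p = 0.000419), and Surf1, a complex IV assembly factor, 26.8 ± 2.70 in MPP4_WT against 36.4 ± 4.90 in HSC_WT (-0.42, adjusted p = 0.0096). Of 14 factors for complex I, 0 were called higher and 1 lower, and 1 and 2, in the same comparisons. Of 19 regulators of mitochondrial biogenesis, 2 were called higher and 3 lower in each, among them Gabpb1, a GABP subunit, at 26.5 ± 0.21 RPKM in MPP4_WT against 20.0 ± 0.96 in HSC_WT (0.39, adjusted p = 0.00464).

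Of 18 citric acid cycle genes, 8 were called higher and 1 lower in wild-type MPP4 against HSC, with a median change of 0.20, where 16.1% and 23.3% of all genes were called. In mutants 4 were higher and 2 lower, with a median of 0.09 and with 16.0% and 23.1% of all genes. Idh2, the mitochondrial NADP isocitrate dehydrogenase, averaged 258 ± 1.13 RPKM in MPP4_WT against 179 ± 3.51 in HSC_WT (0.52, adjusted p = 1.027e-06), and Fh1, fumarase, 94.7 ± 3.96 in CLP_WT against 51.0 ± 5.62 in HSC_WT (0.88, adjusted p = 2.2e-07). Suclg2, a succinyl-CoA ligase subunit, fell to 20.3 ± 2.14 RPKM in CLP_WT, against 31.8 ± 4.51 in HSC_WT (-0.62, adjusted p = 1.302e-05).

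Of 15 glycolytic genes, 4 were called higher and 7 lower in wild-type MPP4 against HSC, 0 and 10 in CLP against MPP4, and 1 and 10 in CLP against HSC, with medians of -0.13, -0.36 and -0.41. In mutants the counts were 2 and 8, 0 and 11, and 2 and 11, with medians of -0.26, -0.35 and -0.48. The shares of all genes called lower in those mutant comparisons were 23.1%, 16.4% and 36.0%. Aldoa, the aldolase, averaged 114 ± 8.16 RPKM in CLP_WT against 307 ± 41.7 in HSC_WT (-1.42, adjusted p = 1.597e-09), and Pfkp, a phosphofructokinase, 12.9 ± 2.79 against 28.3 ± 2.26 RPKM (-1.09, adjusted p = 1.835e-07). Pgam1 went up in MPP4_WT, at 101 ± 6.97 against 59.7 ± 5.04 RPKM in HSC_WT (0.75, adjusted p = 3.361e-06).

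Of 8 carriers of the inner and outer membrane, 3 were called higher and 0 lower in wild-type MPP4 against HSC. Slc25a5, which exchanges ADP for the ATP made by complex V, averaged 519 ± 23.7 RPKM in MPP4_WT against 371 ± 58.5 in HSC_WT (0.49, adjusted p = 0.000215). Ucp2 averaged 570 ± 52.9 RPKM in CLP_HOMO against 328 ± 7.33 in HSC_HOMO (0.79, adjusted p = 1.714e-07), and 591 ± 83.1 in CLP_WT against 307 ± 15.4 in HSC_WT (0.93, adjusted p = 1.737e-07). Atpif1, the inhibitor of the ATP synthase, averaged 85.5 ± 14.4 RPKM in CLP_WT against 140 ± 12.5 in HSC_WT (-0.71, adjusted p = 8.784e-05). No gene of these 7 lists was called between genotypes in any population.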

How the data were processed

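RNA of sorted cells was amplified as full-length polyadenylated cDNA (SMART-seq) and made into libraries by tagmentation, per the labels' protocols. This kit does not mark strand. The authors deposited 1 table of RPKM values for 11628 genes and 21 libraries. Reads were aligned with STAR to mm10, per the submitters' processing notes. Versions, counting tool and annotation were not given in the sources used here. Counts could not be recovered, so depth is unknown and no counting interval is given.

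Symbols turned into dates by a spreadsheet (16) were restored through Entrez identifiers, of which 11619 matched RefSeq. Genes with at least 1 RPKM in at least 3 libraries were kept (11496, including all 77 members). limma 3.58.1, run in R 4.3.3, fitted group means to log2(RPKM + 1) with 15 residual degrees of freedom and a trend of variance on level. Tests were two-sided. The log2 scale with a pseudocount of 1 understates changes of low genes. p-values measure the spread between these libraries. Members, gene lists, the naming rule and most alternatives were all chosen with earlier results of these data known. Named were subunits with fixed roles, the 2 called members with the most positive and the 2 with the most negative change per complex and population comparison, the member with the smallest p per complex and genotype comparison, and the 2 called genes with the smallest p per pathway list and comparison, of which some are given as counts only. Values of 1 member that this rule names are not reported here, although it is included in the counts. Values of the 30 members that overlap another gene, and of the 9 with a named pseudogene copy, are uncertain, since no source says how shared reads were counted.

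Replicate numbers are shared between groups, and the labels do not say that a number marks a mouse. Mutant replicate 4 is labelled 10 weeks in CLP and 12 weeks in HSC and MPP4. For libraries with the same number, deviations from their group means correlated above 0.1 in every pair for CLP_WT and MPP4_WT (0.218 to 0.271), CLP_WT and HSC_WT (0.131 to 0.340), MPP4_HOMO and HSC_HOMO (0.121 to 0.330), and CLP_HOMO and HSC_HOMO (0.103 to 0.481). They did not for MPP4_WT and HSC_WT (0.0941 to 0.330), CLP_HOMO and MPP4_HOMO (0.0955 to 0.379) or between genotypes. The alternatives were other pseudocounts, filters, scalings, library weights, no trend, sex and age as covariates, the number as a block, only the groups compared, each library left out and, added after the data were seen, the mean of other short genes as a covariate. The fit was tested on simulated data, with changes set in genes drawn from all those kept. All other genes were set equal between the groups compared, and noise was drawn for each gene separately. Of 100 changes of 0.5 on the log2 scale, it recovered 46 for HSC_HOMO against HSC_WT and 35 for MPP4_WT against HSC_WT. Of 100 changes of 1, it recovered 87 and 85. In the data, 16.1% of all genes were called higher and 23.3% lower for MPP4_WT against HSC_WT. With more genes changed the adjusted threshold is less strict, so the simulation does not give the recovery in that comparison. Promoters were searched with Python 3.11.15 and pandas 2.3.3.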

Additional observations from a re-analysis of the deposited data

Results flagged for a closer look

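In the mutant groups of 4 libraries, 11 values lay further from the rest of their group than Dixon's 95% limit allows, of 144 tested. Chance flags about 1 in 20 groups. MPP4_HOMO replicate 1 held 7 of them, all low. They were the mean level of complex IV, at 7.09 on the log2(RPKM + 1) scale, Cox4i1 at 274 RPKM, Cox6c at 189.5 RPKM, Cox8a at 320.1 RPKM, Ndufb11 at 71.3 RPKM, Uqcr10 at 140.5 RPKM and Uqcr11 at 96.2 RPKM. The same library was low for other short genes, as described above. Atp5g3 was low in HSC_HOMO replicate 1, at 149 RPKM, and Sdhc was high in HSC_HOMO replicate 4, at 86.6 RPKM. In CLP_HOMO, Atp5g2 was high in replicate 3, at 177 RPKM, and Cox5b was low in replicate 1, at 158 RPKM.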

How the results depend on the processing

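The count of 0 members between genotypes, and of 0 for the differences of mutant effects, held under all 14 other settings and without each library. Sdhb and Cox5a kept their calls in MPP4 and in CLP against HSC under all of them, in both genotypes. Other counts moved. For MPP4_WT against HSC_WT, 11 members were called, with 19 under median-ratio scaling, 24 with library weights, 19 with the replicate block as a mouse correlation, 23 with the covariate of short genes, which was chosen after seeing the data, and 9 to 14 without 1 library. For CLP_WT against MPP4_WT, 2 became 5 (1 higher, 4 lower) with the replicate block, by number or by correlation, 1 without the variance trend, 1 with only the groups compared, and 0 to 1 without 1 library. For CLP_WT against HSC_WT, 11 became 24 with the covariate, 4 with only the groups compared, and 8 to 12 without 1 library. For MPP4_HOMO against HSC_HOMO, 11 became 7 to 13 without 1 library, with 7 lacking HSC_HOMO replicate 1. For CLP_HOMO against MPP4_HOMO, 6 became 12 under median-ratio scaling (12 higher, 0 lower), 10 with the mouse correlation, 19 with the covariate and 1 to 5 without 1 library, with 1 lacking CLP_HOMO replicate 2, 2 lacking MPP4_HOMO replicate 2 or 3, and 3 lacking MPP4_HOMO replicate 4. For CLP_HOMO against HSC_HOMO, 30 became 53 under median-ratio scaling and 20 to 36 without 1 library. The cause was not tested. Of the 57 called values of named members between populations, 30 missed the threshold in at least 1 other setting or without 1 library, and 0 reversed. The median of all members in CLP_WT against HSC_WT, 0.01, was -0.05 under quantile normalization and 0.12 under median-ratio scaling. Where same-numbered libraries deviated together, the block moved no other count by over 1.5 times. The number of libraries, 3 or 4 a group, limits the precision.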
